A study of Rattus norvegicus with 16 samples.

Results

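Translation initiation factors are the proteins that bring a ribosome to the start codon of an mRNA. Their genes were compared between newborn hearts of a rat strain with cardiac hypertrophy and hearts of its control strain. A gene was included when its probe set carried exactly 1 gene symbol in the platform's annotation and that symbol began with Eif1 to Eif6. Of 14324 genes named in this way, 43 met the rule, on 44 of the 27342 probe sets. Lists of initiation factor genes by role held 17 more symbols without such a probe set, so counts by complex cover measured genes only. Where a gene had more than 1 probe set, the brightest by its mean over all 16 arrays stood for it. This mattered for Eif3h alone, where the probe set kept averaged 11.76 and the other 8.50 on the log2 scale.

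The hearts came from pups aged 2 days of the Hypertrophic Heart Rat (HHR), whose hearts the labels call hypertrophic, and of the Normal Heart Rat (NHR), the control, whose hearts they call normal. Each strain gave 4 female and 4 male hearts, so that 4 groups of 4 arrays were compared, with 1 heart sample and no pooling on each Affymetrix Rat Gene 1.0 ST array. The labels describe both whole hearts and ventricles freed of the atria. The sources used here name no litter or dam and no batch, so strain and litter cannot be told apart, and p-values measure the spread between these samples. HHR is a model of hypertrophy with many contributing loci, per the series title, so a difference between HHR and NHR belongs to the strains as a whole and cannot be assigned to a single allele. A probe can also lose signal where a strain carries a sequence variant under it, and the effect of this on single genes was not tested.

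Initiation begins when eIF2, loaded with GTP and the initiator tRNA, joins the small ribosomal subunit together with eIF1, eIF1A, eIF3 and eIF5. The cap-binding complex eIF4F, made of eIF4E, the scaffold eIF4G and the helicase eIF4A, recruits the mRNA, and the complex scans to the start codon before eIF5B joins the large subunit. Control sits on eIF2, which kinases inactivate by phosphorylating its alpha subunit and which eIF2B recharges with GTP. It also sits on eIF4E, which the 4E-binding proteins hold back until mTORC1 phosphorylates them. Protein synthesis rises in the growing heart, and both control points are well known in cardiac muscle.

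All values are log2 signals made by RMA, which corrects background, normalizes arrays to each other and summarises the probes of a probe set. A difference of 1 on this scale is a doubling, and differences are given as HHR minus NHR with the model's standard error (SE). They were tested with limma over all 27342 probe sets and called at a Benjamini-Hochberg adjusted p under 0.05. Array medians lay between 7.19 and 7.28. The labelled tissue was checked against 10 cardiomyocyte markers, and all 10 lay above the 90th percentile of brightness. In bulk tissue, fewer cells of a type and less RNA per cell cannot be told apart.

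Of the 43 initiation factor genes, 19 (44.2%) differed between the strains, 10 higher in HHR and 9 lower, while 20.7% of all probe sets did so, 9.64% higher and 11% lower. All 43 were on bright probe sets. Among the 16900 probe sets above the 40th percentile on at least 4 arrays, where the background was 33.5%, 20 of the 43 (46.5%) were called. The genes moved in both directions, with a median difference of 0.02, against -0.03 over all probe sets. The sizes were modest, with a median of 0.11 regardless of sign against 0.08 over all probe sets, and ran from -0.43 for Eif4a2 to 0.81 for Eif2s1. The HHR and NHR arrays did not overlap at all for 5 genes (11.6%), against 4.15% of all probe sets. Eif2s1 and Eif5a were higher in all 8 HHR hearts than in any NHR heart (1.95% of all probe sets were so), and Eif1b, Eif2ak4 and Eif4a2 were lower in all 8 (2.2%).

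**Figure D1:**
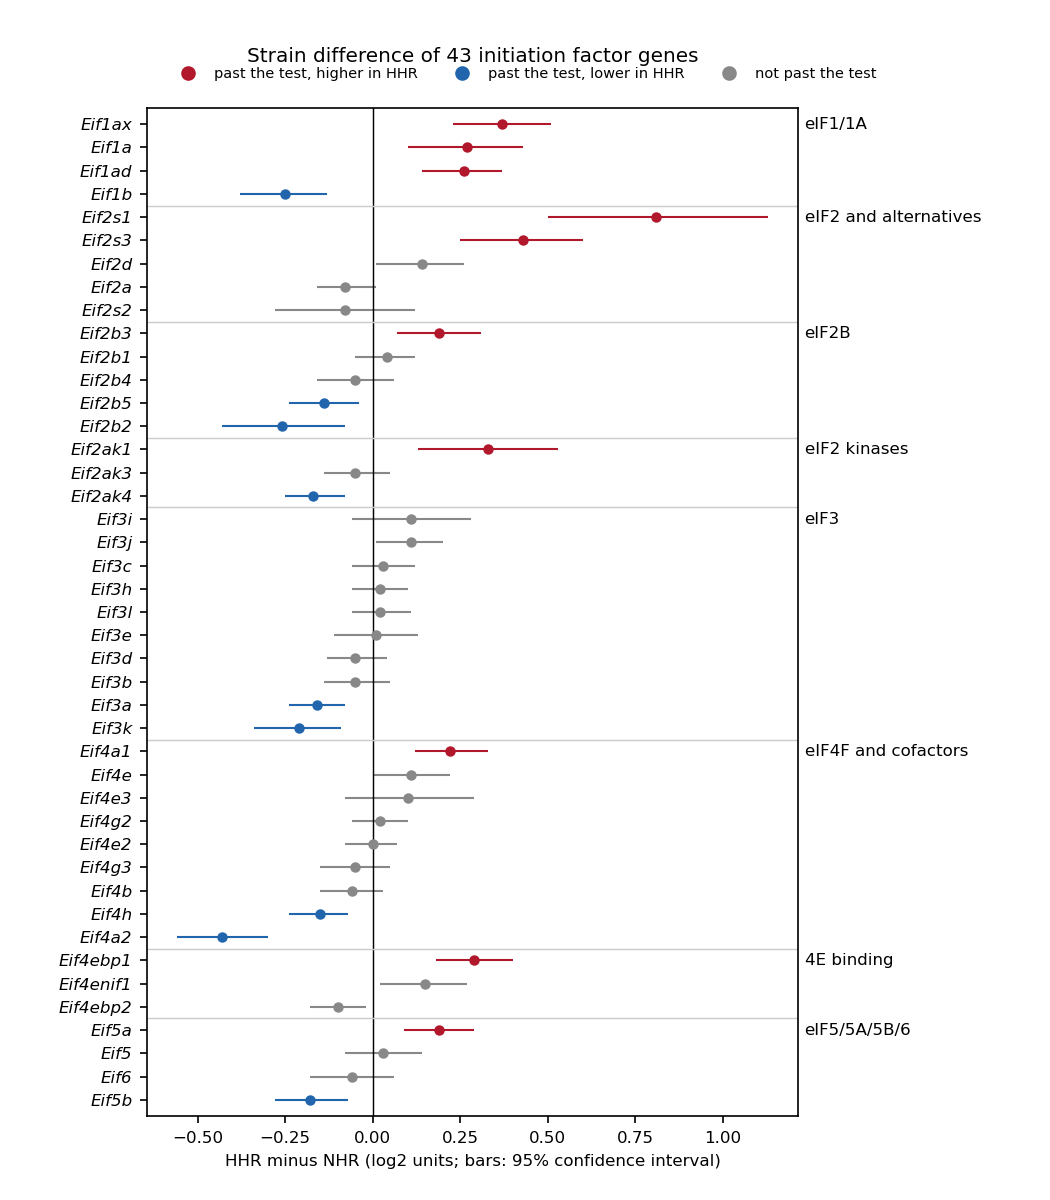
Strain difference (HHR minus NHR, log2) of each of the 43 initiation factor genes, grouped by role, with its 95% confidence interval; colours mark genes higher in HHR, lower in HHR and not past the test. All 4 measured genes of the eIF1 and eIF1A group are past the test (100%). Of 10 measured eIF3 genes 2 are (20%), against 20.7% of all probe sets and 33.5% of bright ones. Eif2s1 (0.81) and Eif4a2 (-0.43) mark the ends of the range.

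The difference of greatest size was in Eif2s1, which encodes the alpha subunit of eIF2, the subunit that the stress kinases phosphorylate. HHR females measured 11.73, 11.53, 11.47 and 11.67, and HHR males 11.64, 11.55, 11.55 and 11.50. NHR females measured 11.20, 10.96, 10.14 and 10.04, and NHR males 11.13, 11.40, 10.70 and 10.57. The HHR hearts were tightly packed (SD 0.09, n = 8) and the NHR hearts widely spread (SD 0.49, n = 8), with every HHR heart above every NHR heart. The difference was 0.81 (SE 0.15, limma adjusted p = 0.00118), or 1.76-fold. The 200 bases before its start site are shown because they hold the only NRF1 core among the 9 HHR-high genes with a promoter sequence. NRF1 is a transcription factor of nuclear genes for mitochondria and growth. The sequence is RefSeq's for assembly GRCr8, chr6:103405680-103405879 on the plus strand, with the NRF1 core in capitals.

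Eif2s1: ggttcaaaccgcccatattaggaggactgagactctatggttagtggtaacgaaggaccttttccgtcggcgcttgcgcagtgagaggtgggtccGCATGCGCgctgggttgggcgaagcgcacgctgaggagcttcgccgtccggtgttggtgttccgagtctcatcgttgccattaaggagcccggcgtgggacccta

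The gamma subunit gene Eif2s3, which encodes the GTP- and tRNA-binding subunit of eIF2, was also higher in HHR. HHR females measured 12.24, 12.30, 12.21 and 12.24 and HHR males 11.91, 11.98, 11.94 and 11.89. NHR females measured 12.06, 11.92, 11.67 and 11.47 and NHR males 11.65, 11.83, 11.38 and 11.31. All HHR females lay above every NHR heart, and the HHR males overlapped with the NHR females. The difference was 0.43 (SE 0.08, limma adjusted p = 0.00154), or 1.34-fold. The beta subunit gene Eif2s2, named here because it completes the complex and after its values were seen, gave -0.08 (SE 0.09, adjusted p = 0.598), with a 95% confidence interval from -0.28 to 0.12. The 3 subunit genes of eIF2 therefore gave differences of 0.81, -0.08 and 0.43. The 2 genes for factors that can replace eIF2 in delivering the initiator tRNA did not pass the test. The NHR hearts are spread along 1 axis of variation, described further on. Without the 3 NHR hearts at the end of it where most called genes differed more from HHR (females 3 and 4 and male 4, called the far NHR arrays) the differences were 0.50 for Eif2s1 (adjusted p = 0.00289) and 0.28 for Eif2s3 (adjusted p = 0.00919). Leaving out the 4 at the near end (females 1 and 2 and males 1 and 2) was a choice made after seeing the data. It gave 1.22 (adjusted p = 5.3e-08) and 0.63 (adjusted p = 1.9e-06). These 4 were picked along an axis drawn from the same signals, and the SE of Eif2s1 fell from 0.15 to 0.06 without them. The p-values of that fit therefore cannot be read as support. Eif2s2 gave -0.25 (adjusted p = 0.0444) in that fit and 0.10 (adjusted p = 0.34) without the 3 far NHR arrays. Its sign thus depended on which NHR arrays were kept.

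**Figure D2:**
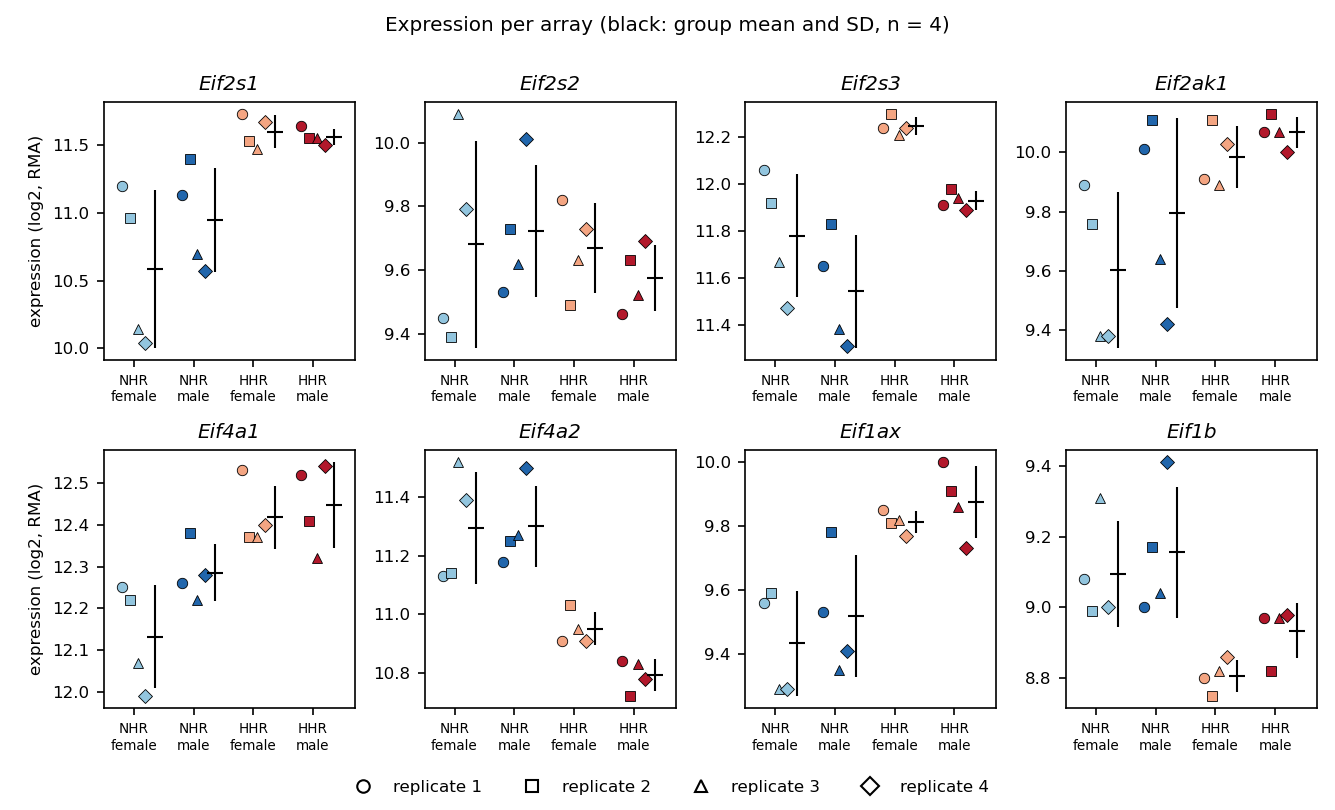
Log2 signal of 8 initiation factor genes on each of the 16 arrays, by strain and sex, with 1 marker an array shaped by its replicate number and, in black, each group's mean and SD (n = 4). Eif2s1 sits between 11.47 and 11.73 in HHR and spreads from 10.04 to 11.40 in NHR, and Eif4a2 is lower in every HHR heart than in any NHR heart.

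All 4 measured genes of the eIF1 and eIF1A group differed between the strains, 3 higher and 1 lower in HHR. That is 100% of a small group, against 20.7% of all probe sets and 33.5% of bright ones. Eif1 itself was not analysed here. Eif1ax encodes eIF1A, which holds the initiation complex open for scanning. It measured 9.73 to 10.00 in HHR (median 9.84) and 9.29 to 9.78 in NHR (median 9.47), and 6 of 8 HHR hearts lay above every NHR heart. The difference was 0.37 (SE 0.07, limma adjusted p = 8.9e-04). Eif1a, a close copy of it whose probes may share transcripts, was higher by 0.27 (SE 0.08, adjusted p = 0.0206). Eif1ad, which encodes a protein with an eIF1A-like domain, was higher by 0.26 (SE 0.06, adjusted p = 0.00357), in 7 of 8 HHR hearts above every NHR heart. Eif1b, an eIF1 gene whose product guards start-codon choice, went the other way. It measured 8.75 to 8.98 in HHR (median 8.84) and 8.99 to 9.41 in NHR (median 9.06), without overlap. The difference was -0.25 (SE 0.06, adjusted p = 0.00685). Without the 3 far NHR arrays, Eif1a gave 0.16 and was no longer called (adjusted p = 0.188).

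The guanine exchange factor eIF2B has 5 subunit genes here, of which 1 was higher in HHR, 2 were lower and 2 did not pass. The share called was 60%, against 20.7% of all probe sets and 33.5% of bright ones. Eif2b3, for a subunit of the catalytic part, was higher by 0.19 (SE 0.06, limma adjusted p = 0.0269). Eif2b5, for the catalytic epsilon subunit, was lower, at -0.14 (SE 0.05, adjusted p = 0.0398). Eif2b2, for a subunit of the regulatory core, gave -0.26 (SE 0.08, adjusted p = 0.0343). Its NHR females 3 and 4 both measured 9.43, while the other 6 NHR hearts, from 8.81 upwards, all lay below the highest HHR heart (HHR range 8.66 to 9.03). These 3 calls were fragile. With the 3 far NHR arrays left out, Eif2b2 gave -0.11 (adjusted p = 0.267), Eif2b3 0.13 (adjusted p = 0.182) and Eif2b5 -0.13 (adjusted p = 0.109). Leaving out 1 array also ended the Eif2b2 call in 11 of 16 cases (replicates 2 to 4 of HHR females, of HHR males and of NHR males, and NHR females 3 and 4), with adjusted p up to 0.0739. It ended the Eif2b3 call in 5 cases (HHR females 1 and 4, NHR females 3 and 4 and NHR male 3), with adjusted p up to 0.0609. It ended the Eif2b5 call in 12 cases (all but HHR female 1, HHR male 1, NHR female 4 and NHR male 3), with adjusted p up to 0.0815.

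Of the kinases that phosphorylate eIF2 alpha, 3 were measured and gave 3 different outcomes. With 2 of the 3 called, the share was 66.7%, against 20.7% of all probe sets and 33.5% of bright ones. Eif2ak4 encodes GCN2, which senses uncharged tRNA when amino acids are short. It was lower in HHR, at 8.51, 8.69, 8.67 and 8.67 in HHR females and 8.63, 8.58, 8.68 and 8.67 in HHR males. NHR females measured 8.80, 8.89, 8.91 and 8.83 and NHR males 8.76, 8.72, 8.73 and 8.79. The groups did not overlap, although the difference was small, at -0.17 (SE 0.04, limma adjusted p = 0.00633). Eif2ak1 encodes HRI, the heme-regulated kinase. Its HHR hearts measured 9.89 to 10.13 (median 10.05) and its NHR hearts 9.38 to 10.11 (median 9.70), so that a single HHR heart exceeded all NHR hearts. The difference was 0.33 (SE 0.09, adjusted p = 0.0213), which became 0.15 (adjusted p = 0.185) when the 3 far NHR arrays were left out. Of 6 erythroid markers, 3 were higher and 2 lower in HHR, a share of 83.3% called against 20.7% of all probe sets. The log2 of their summed signals ran from 12.72 to 13.25 in HHR and from 12.29 to 13.05 in NHR. That sum mostly followed Hbb, the brightest of them, at 12.37 to 12.89 in HHR and 11.84 to 12.61 in NHR. The part of these markers in the result was not tested. Eif2ak3, for the endoplasmic reticulum kinase PERK, gave -0.05 (SE 0.04, adjusted p = 0.51), with an interval from -0.14 to 0.05. Eif2ak2, for the RNA-activated kinase PKR, was not analysed here.

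The large complex eIF3 bridges the small ribosomal subunit and eIF4G. Of the 10 eIF3 genes measured here, 2 were lower in HHR, none was higher and 8 did not pass. The differences of those 8 lay between -0.05 and 0.11. The share called, 20%, was close to the 20.7% of all probe sets and below the 33.5% of bright ones. Eif3a, for the largest subunit, measured 10.66 to 10.87 in HHR (median 10.82) and 10.87 to 11.04 in NHR (median 10.94), and 7 of 8 HHR hearts lay below every NHR heart. The difference was -0.16 (SE 0.04, limma adjusted p = 0.00675). Eif3k, for a small peripheral subunit, gave -0.21 (SE 0.06, adjusted p = 0.0178). Its NHR females 3 and 4 and NHR male 4 were the highest hearts, at 10.52, 10.61 and 10.57, and without those 3 arrays it gave -0.10 (adjusted p = 0.138). The second probe set of Eif3h gave 0.10 (SE 0.07, adjusted p = 0.356) and the brighter one 0.02 (SE 0.04, adjusted p = 0.73), so neither passed.

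In the cap-binding complex, the 2 paralogous eIF4A helicase genes went in opposite directions. Eif4a2 was lower in HHR, at 10.91, 11.03, 10.95 and 10.91 in females and 10.84, 10.72, 10.83 and 10.78 in males. NHR females measured 11.13, 11.14, 11.52 and 11.39 and NHR males 11.18, 11.25, 11.27 and 11.50. The strains did not overlap, and the difference was -0.43 (SE 0.06, limma adjusted p = 1.5e-04), or 1.34-fold. This was the smallest adjusted p among the 43 genes. Eif4a1, the form common in dividing cells, was higher in HHR, at 12.53, 12.37, 12.37 and 12.40 in females and 12.52, 12.41, 12.32 and 12.54 in males. NHR females measured 12.25, 12.22, 12.07 and 11.99 and NHR males 12.26, 12.38, 12.22 and 12.28. NHR male 2 reached into the HHR range, and 5 of 8 HHR hearts lay above every NHR heart. The difference was 0.22 (SE 0.05, adjusted p = 0.0046), or 1.17-fold. Because their coding sequences are alike, some probes may read both genes.

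The promoters of this opposed pair are printed to show how their letters differ. Both are RefSeq sequences for GRCr8, 200 bases up to the start site, on the minus strand, at chr10:54888603-54888802 for Eif4a1 and chr11:91275324-91275523 for Eif4a2. Capitals mark CCAAT and GGGCGG in the first and TATAAA and GGGCGG in the second.
Eif4a1: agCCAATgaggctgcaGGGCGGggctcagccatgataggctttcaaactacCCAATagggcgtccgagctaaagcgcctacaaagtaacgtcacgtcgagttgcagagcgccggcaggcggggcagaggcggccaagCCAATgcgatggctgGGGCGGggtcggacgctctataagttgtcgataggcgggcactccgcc
Eif4a2: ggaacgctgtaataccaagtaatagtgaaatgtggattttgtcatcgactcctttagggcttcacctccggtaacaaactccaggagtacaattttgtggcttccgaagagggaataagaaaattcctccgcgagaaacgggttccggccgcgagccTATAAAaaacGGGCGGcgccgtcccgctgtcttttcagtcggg

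The Eif4a1 window held 3 CCAAT boxes and 2 GC boxes, and the Eif4a2 window 1 TATA box and 1 GC box. Only exact letters were counted, and the Eif4a1 window also holds TATAAG, which differs from TATAAA in its last letter. Windows of this kind were found for 38 of the 43 genes, and 5 motifs were searched on both strands, with overlapping matches allowed. Each of the 38 genes was counted on its first listed window. The background was all 33469 windows of 27457 genes, so the 2 shares count different units. TATAAA was in 1 member window (2.63%), that of Eif4a2, against 10.4% of all 33469 windows. The GC box GGGCGG was in 23 (60.5%) against 28.6%, and CCAAT in 10 (26.3%) against 29.2%. The NRF1 core GCGCATGC was in 4 (10.5%), those of Eif2s1, Eif3a, Eif3k and Eif4h, against 1.97%, and the E-box CACGTG in 4 (10.5%), those of Eif1b, Eif3b, Eif4e and Eif4h, against 4.68%. Of the 4 genes with an NRF1 core, Eif2s1 was higher and the other 3 lower in HHR. These matches describe letters in the reference genome, which is of neither strain, and Eif3b and the members of the motif sets were named after their values were seen.

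In the rest of the cap-binding group 1 gene passed. In all, 3 of its 9 measured genes were called (33.3%), against 20.7% of all probe sets and 33.5% of bright ones. Eif4h, which stimulates the helicase, gave -0.15 (SE 0.04, limma adjusted p = 0.00972). Leaving out the 3 far NHR arrays gave -0.13 (adjusted p = 0.0625). Eif4e, the cap-binding protein, averaged 11.05 ± 0.11 (SD, n = 8) in HHR and 10.94 ± 0.08 (SD, n = 8) in NHR. Its difference of 0.11 (SE 0.05, adjusted p = 0.138) did not pass, with an interval from 0.00 to 0.22. The other 5 genes of the group did not pass either, with differences between -0.06 and 0.10. Eif4g1, for the main scaffold, was not analysed here.

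Eif4ebp1, whose product 4E-BP1 binds eIF4E and blocks cap-dependent initiation until mTORC1 phosphorylates it, was higher in HHR. HHR females measured 11.28, 11.18, 11.10 and 11.01 and HHR males 11.18, 11.18, 11.12 and 11.16. NHR females measured 10.87, 11.00, 10.67 and 10.76 and NHR males 10.89, 11.03, 10.81 and 10.85. The groups overlapped through HHR female 4 and NHR male 2 only, and the difference was 0.29 (SE 0.05, limma adjusted p = 0.001), or 1.22-fold. The array measures RNA and says nothing of phosphorylation. Eif4ebp2, for a second 4E-binding protein, gave -0.10 (SE 0.04, adjusted p = 0.0784). In females its difference was -0.21 (adjusted p = 0.0173) and in males 0.01. Without the 3 far NHR arrays the averaged difference passed, at -0.14 (adjusted p = 0.0265). Those arrays were picked from the same signals, so this call is not separate support. Its unadjusted interaction p was under 0.05, the only such case among the 43 genes, and its adjusted value was not.

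Among the late factors, Eif5a was higher and Eif5b lower in HHR. Eif5a encodes the hypusine-bearing factor that helps ribosomes through difficult peptide bonds. It was very even in HHR, from 12.50 to 12.56 (median 12.53), and lower and wider in NHR, from 12.11 to 12.47 (median 12.38), without overlap. The difference was 0.19 (SE 0.05, limma adjusted p = 0.00916). It was 0.11 (adjusted p = 0.0707) when the 3 far NHR arrays were left out and 0.12 (adjusted p = 0.0676) after quantile normalization. Eif5b, the GTPase that joins the large subunit, gave -0.18 (SE 0.05, adjusted p = 0.0188), with 1 of 8 HHR hearts below every NHR heart, and -0.15 (adjusted p = 0.0594) after median centring. Eif6, which keeps the large subunit apart until it is mature, averaged 9.44 ± 0.09 (SD, n = 8) in HHR and 9.50 ± 0.13 (SD, n = 8) in NHR, and did not pass (difference -0.06, SE 0.06, adjusted p = 0.497).

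**Figure D3:**
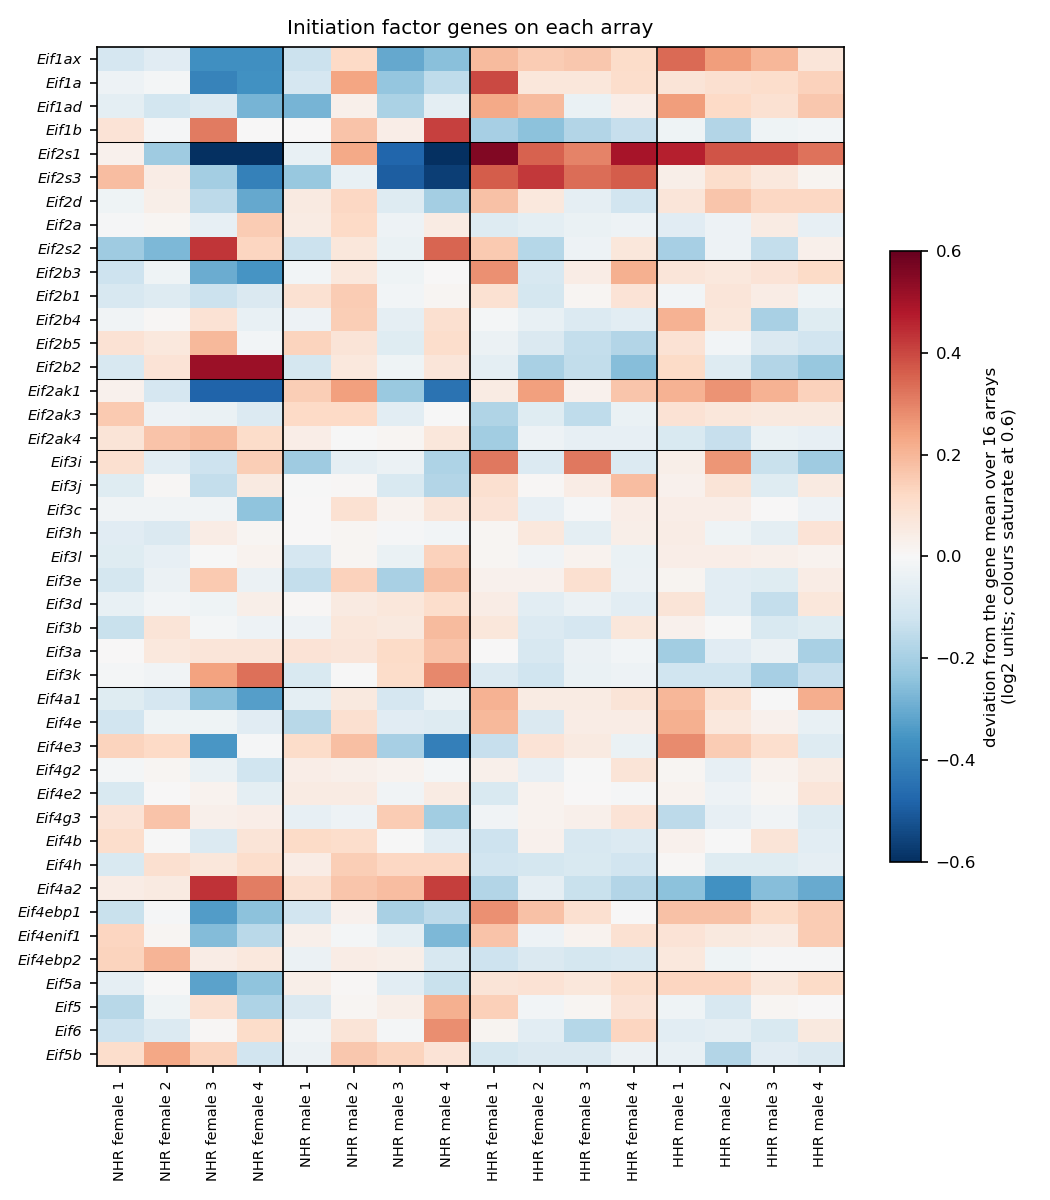
Log2 signal of the 43 initiation factor genes on each of the 16 arrays, as the deviation from each gene's mean over all arrays, with genes in rows by role and arrays in columns by strain and sex; red is above and blue below the mean, and colours saturate at 0.6. Eif2s1 is dark blue on NHR females 3 and 4 (10.14 and 10.04) and NHR male 4 (10.57) and red on every HHR array.

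The spread among arrays was itself uneven. Over the 43 genes, hearts of a group had a median SD of 0.068 in HHR and 0.113 in NHR, and the SD was larger in NHR for 32 of them (74.4%), close to the 70.8% of all probe sets. After group means were taken off, the first principal component of the 43 genes held 55.8% of their variance. That of all probe sets, fitted separately, held 26.7%. Genes were not scaled, so those with a wide spread, such as Eif2s1, weighed more. Scores on the component of the 43 genes lay between -0.09 and 0.16 on all HHR arrays. On the NHR arrays they were -0.96, -0.71, 0.90 and 0.77 in females 1 to 4 and -0.46, -0.73, 0.30 and 0.89 in males 1 to 4. On the component of all probe sets NHR female 3, NHR female 4 and NHR male 4 scored 14.4, 15.1 and 22.6. On the same component NHR male 3 scored 1.74, and NHR females 1 and 2 and males 1 and 2 scored -16.9, -12.6, -11.1 and -13.2. The NHR arrays were therefore split along this axis, with arrays at both ends, while all HHR arrays, centred on their own groups, lay between -3.72 and 7.48. The sources used here do not say what separates the 2 ends.

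Without the 3 far NHR arrays, 12 of the 43 genes (27.9%) were called, 6 higher and 6 lower, against 14.6% of all probe sets. Of the 19 genes called with all arrays, 11 were called again and 8 were lost (Eif1a, Eif2ak1, Eif2b2, Eif2b3, Eif2b5, Eif3k, Eif4h and Eif5a), while Eif4ebp2 was gained. The difference shrank in 18 of the 19. Genes called both ways were Eif2s1, Eif2s3, Eif1ax, Eif1ad, Eif4a1 and Eif4ebp1 on the higher side and Eif4a2, Eif1b, Eif2ak4, Eif3a and Eif5b on the lower side. Eif4a2 gave -0.31 (limma adjusted p = 3.1e-04), Eif1ax 0.28 (adjusted p = 0.0117) and Eif4ebp1 0.23 (adjusted p = 0.0111). Leaving out the 4 arrays of the near end instead, a choice made after seeing the data, gave 21 called genes (48.8%), 13 higher and 8 lower, against 28.3% of all probe sets. In that fit 17 of the 19 genes were called again, Eif2b5 and Eif5b were not, and the difference was larger in 17 of the 19. Eif4a2 gave -0.55 (adjusted p = 1.4e-05). The far end was named as the end where most called genes differed more from HHR. Smaller differences without the far arrays and larger ones without the near arrays thus largely follow from that choice. They are not a separate result. The far arrays too were picked along an axis drawn from the same signals. Calls kept, lost or gained without them show only how far results depend on those arrays.

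**Figure D4:**
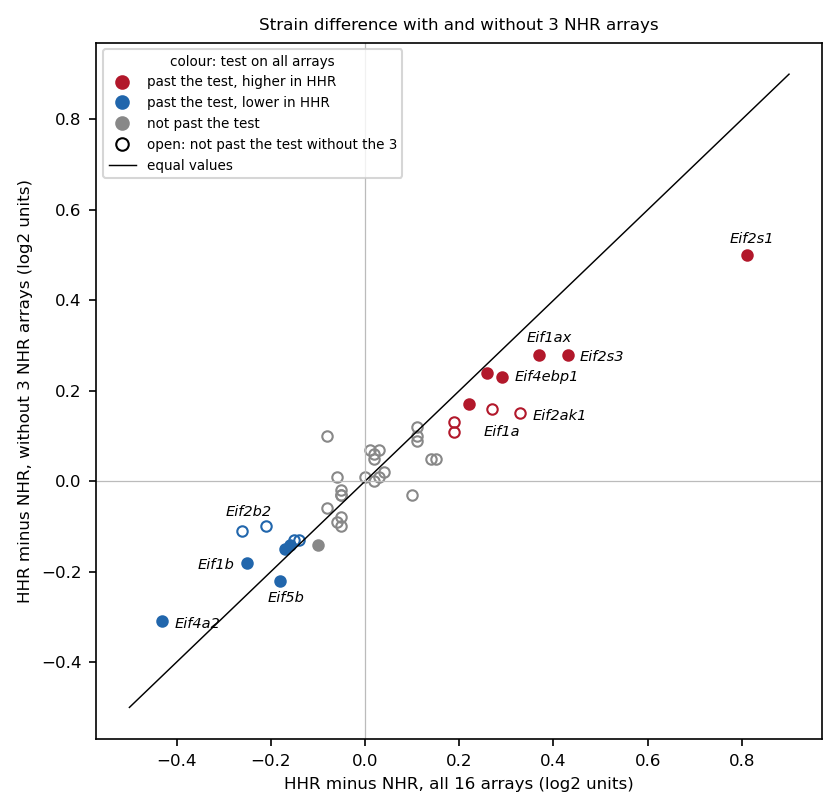
Strain difference (HHR minus NHR, log2) of each of the 43 genes with all 16 arrays on the horizontal axis and without NHR females 3 and 4 and NHR male 4 on the vertical axis; colours show the test on all arrays, open circles are genes not past the test without the 3 arrays, and the diagonal marks equal values. Eif2s1 falls from 0.81 to 0.50 and 18 of the 19 called genes lie closer to 0 without the 3 arrays.

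The 19 called genes had the same sign in both sexes, as did 34 of all 43 genes. Calls were made on the average of the male and female differences. A shared sign among called genes thus largely follows from the selection. In males alone 3 genes (6.98%) passed, with Eif1ax higher and Eif3a and Eif4a2 lower, against 4.02% of all probe sets, 2.03% higher and 1.98% lower. In females alone 13 (30.2%) passed, 8 higher and 5 lower, against 12%, 5.78% higher and 6.21% lower. These counts moved with single arrays. In females the higher count fell to 4 without HHR female 1, to 5 without HHR female 4 or NHR female 3 and to 2 without NHR female 4, and the lower count fell to 3 without any 1 HHR female and to 2 without NHR female 3. In males the higher count was 0 without HHR female 2 or 3, HHR male 1, 2 or 3 or NHR male 1, 3 or 4, 2 without NHR female 1, 2 or 3, 3 without NHR female 4 and 5 without NHR male 2. The lower count in males was 1 without HHR male 1 or 4 or NHR male 3 or 4. Eif3a gave -0.24 in males (limma adjusted p = 0.0236) and -0.09 in females (adjusted p = 0.322), and Eif2s1 gave 0.61 in males (adjusted p = 0.118) and 1.02 in females (adjusted p = 0.0059). No gene passed the limma test of a difference between the sexes in the strain effect. At an unadjusted p under 0.05, 1 of 43 (2.33%) did so, against 5.08% of all probe sets, and 0% of all probe sets passed after adjustment. No gene passed for sex itself, where 0.011% of all probe sets did (0.00366% higher and 0.00731% lower in males), and 3 of 43 (6.98%) had an unadjusted p under 0.05, against 6.4% of all probe sets. Eif2s3, which lies on the X chromosome, was 1 of those 3, with a difference of males minus females of -0.28 (adjusted p = 0.694).

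Genes around the initiation factors were read from lists. On the axis from mTORC1 to the 4E-binding proteins and S6 kinase, 13 of 18 listed genes were measured. Of these 4 were higher and 5 lower in HHR and 4 did not pass (median -0.09). The share called was 69.2%, against 20.7% of all probe sets and 33.5% of bright ones. Pdcd4, whose product inhibits the eIF4A helicase, was higher by 0.51 (SE 0.11, limma adjusted p = 0.00274), with 6 of 8 HHR hearts above every NHR heart. Rps6kb1, for the S6 kinase that marks that inhibitor for destruction, was higher by 0.33 (SE 0.08, adjusted p = 0.00671). Ddit4, for the mTORC1 inhibitor REDD1, gave -0.58 (SE 0.11, adjusted p = 0.00181). Tsc1, for another inhibitor of mTORC1, gave -0.19 (SE 0.04, adjusted p = 0.00392). Mtor, for the kinase itself, gave -0.09 (SE 0.04, adjusted p = 0.109). Without the 3 far NHR arrays the list had 1 higher and 3 lower, with Pdcd4 at 0.33 (adjusted p = 0.0248), Ddit4 at -0.38 (adjusted p = 0.00868) and Rps6kb1 at 0.19 (adjusted p = 0.052). The lower count was also 3 without HHR male 2 or HHR male 3.

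Downstream of eIF2, 22 of 23 listed genes of the integrated stress response and its phosphatase were measured, with 7 higher, 2 lower and 13 not passing (median 0.09). The share called was 40.9%, against 20.7% of all probe sets and 33.5% of bright ones. Atf4, whose mRNA is translated more when eIF2 alpha is phosphorylated, was lower at the RNA level. It ran from 9.64 to 10.04 in HHR and from 10.07 to 10.26 in NHR, without overlap, a difference of -0.24 (SE 0.05, limma adjusted p = 0.00179). The 4 list members with the smallest adjusted p were higher. Psat1, for serine synthesis, gave 0.37 (SE 0.06, adjusted p = 4.0e-04) and Slc7a5, for a leucine transporter, 0.40 (SE 0.06, adjusted p = 3.7e-04). Mthfd2, for mitochondrial folate metabolism, gave 0.44 (SE 0.07, adjusted p = 6.0e-04). Vldlr, for a lipoprotein receptor, gave 0.48 (SE 0.07, adjusted p = 1.7e-04). In Mthfd2 and Vldlr every HHR heart exceeded every NHR heart. The second lower gene was Ddit3, for the stress transcription factor CHOP, named after its values were seen, at -0.20 (SE 0.06, adjusted p = 0.0321) with 7 of 8 HHR hearts below every NHR heart. It gave -0.12 (adjusted p = 0.191) without the 3 far NHR arrays, and leaving out 1 array ended its call in 8 of 16 cases. Ppp1r15a, Trib3, Chac1 and Atf3, also named after their values were seen, did not pass, with differences of -0.21, -0.11, -0.10 and -0.29. Without the 3 far NHR arrays Ppp1r15a and Atf3 did pass, at -0.27 (adjusted p = 0.0227) and -0.52 (adjusted p = 0.0246). Trib3 and Chac1 did not pass in that fit either. The lower count was 1 instead of 2 without HHR female 1, HHR male 1, 2 or 4, NHR female 4 or NHR male 3, and after cyclic loess.

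Of 14 measured partners of initiation outside the Eif names (23 listed), 2 were higher, 2 lower and 10 did not pass. The share called, 28.6%, lay between the 20.7% of all probe sets and the 33.5% of bright ones. Bzw1, which competes with eIF5, gave 0.32 (SE 0.05, limma adjusted p = 4.9e-04), and Abce1, the ribosome recycling factor, 0.32 (SE 0.07, adjusted p = 0.0023). Gcn1, the activator of the kinase encoded by Eif2ak4, was lower in all 8 HHR hearts than in any NHR heart, at -0.23 (SE 0.05, adjusted p = 0.00232), and Mcts1, for a factor that takes part in reinitiation, gave -0.23 (SE 0.07, adjusted p = 0.021). Without the 3 far NHR arrays Abce1 gave 0.21 (adjusted p = 0.0141) and Mcts1 -0.12 (adjusted p = 0.167).

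Of 17 genes for elongation, termination and hypusine synthesis, 4 were higher, 1 was lower and 12 did not pass, a share of 29.4% called that also lay between those backgrounds. Eef1a2, the elongation factor form of adult muscle, was lower in all 8 HHR hearts, from 11.42 to 11.71 against 11.79 to 12.05 in NHR (difference -0.33, SE 0.05, limma adjusted p = 2.0e-04). Eefsec, which delivers selenocysteine, gave 0.21 (SE 0.04, adjusted p = 0.00171). The release factor genes Gspt1 and Etf1 were higher by 0.52 (SE 0.13, adjusted p = 0.00808) and 0.24 (SE 0.06, adjusted p = 0.0067). Gspt1 ran from 12.00 to 12.19 in HHR and from 10.95 to 11.99 in NHR. Without the 3 far NHR arrays 2 genes of this list were higher, with Gspt1 at 0.23 (adjusted p = 0.0128) and Etf1 at 0.16 (adjusted p = 0.0521). The lower count was 2 without NHR female 1 or NHR male 1, after quantile normalization and after cyclic loess, and 4 without the 4 arrays of the near end.

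**Figure D5:**
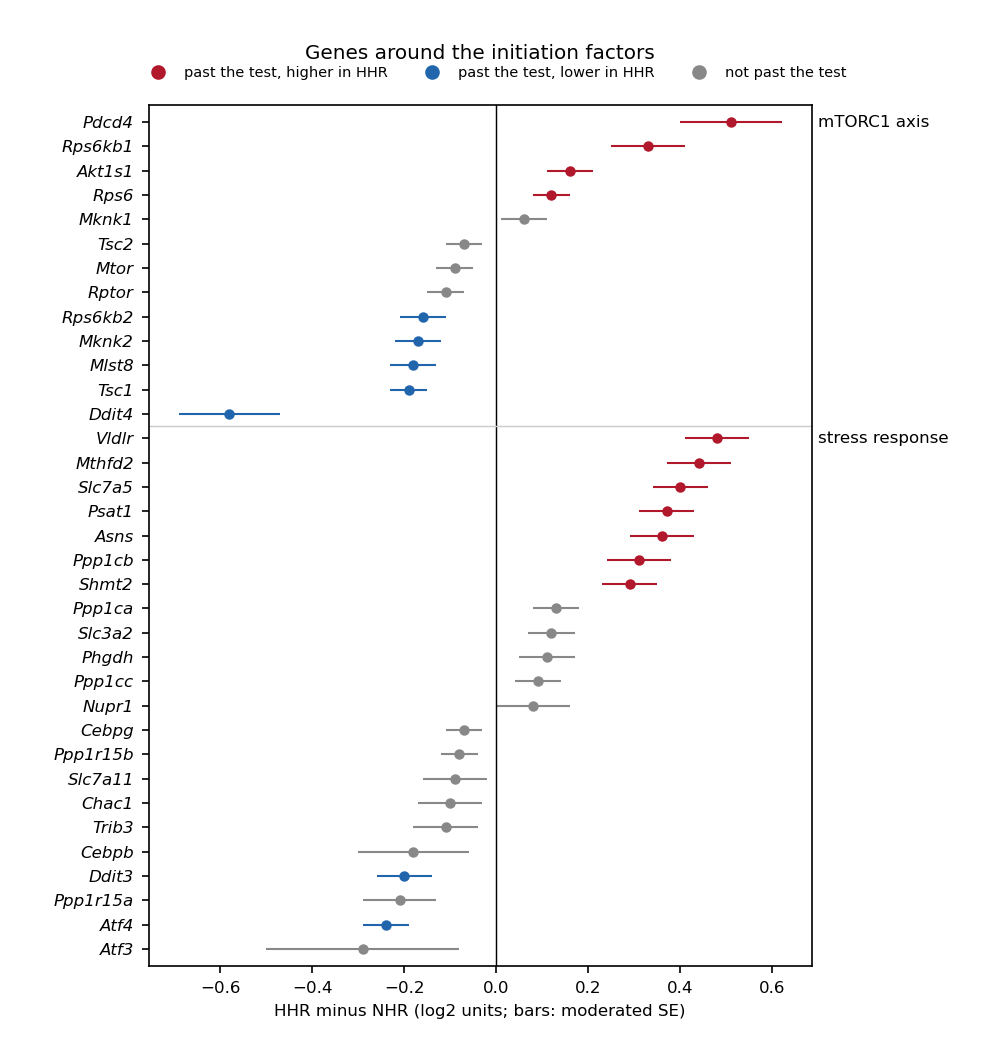
Strain difference (HHR minus NHR, log2) with its moderated standard error for the measured genes of 2 lists, the mTORC1 axis (13 genes) and the stress response (22 genes); colours mark genes higher in HHR, lower in HHR and not past the test. Atf4 (-0.24) and Ddit3 (-0.20) are the lower calls of the stress response list, and Vldlr (0.48), Mthfd2 (0.44), Slc7a5 (0.40) and Psat1 (0.37) are among its higher calls.

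Some markers in each list of cells of the tissue differed between the strains too. The background was 20.7% of all probe sets and 33.5% of bright ones. The shares called were 60% of cardiomyocyte, 37.5% of fibroblast, 71.4% of endothelial and 66.7% of atrial markers. They were 40% of epicardial, 20% of leukocyte and 50% of mural markers and 37.5% of genes of neighbouring tissue. Ranges give the log2 of a list's summed signals, in which its brightest genes weigh most. Of 10 cardiomyocyte markers, 6 were lower and none higher in HHR (16.83 to 16.90 in HHR, 16.88 to 16.99 in NHR). Of 8 fibroblast markers, 3 were higher and none lower (14.47 to 14.70 in HHR, 14.31 to 14.57 in NHR), and of 7 measured endothelial markers 1 was higher and 4 lower (13.33 to 13.45 in HHR, 13.40 to 13.52 in NHR). Of 6 atrial markers, 3 were higher and 1 lower (14.21 to 14.56 in HHR, 13.92 to 14.31 in NHR), and of 5 epicardial markers 2 were higher and none lower (10.78 to 10.99 in HHR, 10.30 to 10.76 in NHR). Of 10 leukocyte markers, 1 was higher and 1 lower (10.39 to 10.74 in HHR, 10.35 to 10.66 in NHR). Of 6 mural cell markers, 2 were higher and 1 lower (12.89 to 13.09 in HHR, 12.87 to 13.03 in NHR). Of 8 genes of neighbouring tissue 1 was higher and 2 lower, and their summed level (12.99 to 13.09 in HHR, 13.18 to 13.40 in NHR) followed Ckm, a creatine kinase gene that heart muscle also expresses, at 12.89 to 12.98 in HHR and 13.09 to 13.32 in NHR. Their part in the differences of the initiation factor genes was not tested.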

How the data were processed

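RNA of 16 rat hearts was measured on Affymetrix Rat Gene 1.0 ST arrays, 4 in each of 4 groups read from the sample titles. The authors deposited log2 signals, 1 column per array. The submitters' processing notes name RMA and limma and give no version. No background level came with the values, which leaves dim and absent signals alike, and precision is limited by the number of arrays. In the platform's annotation of the probe sets, 15097 had 1 gene symbol, 323 several and 11922 none.

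A mean per group was fitted to all 27342 probe sets with limma 3.58.1 in R 4.3.3, with empirical Bayes moderation, and p was adjusted by Benjamini-Hochberg over the whole table in each of 5 comparisons (strain, strain in males, strain in females, their difference, and sex). Beside lists are counts and medians, with no set test. The fit was tested on simulated data. Motifs were counted in RefSeq promoter windows of GRCr8.

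The genes, the lists and the far and near NHR arrays left out were chosen with earlier results of these data known. Named genes were those past the strain test, the smallest adjusted p of each role and a fixed set of well-known factors. For the lists they were up to 4 members past the test, plus Atf4, Mtor, Rps6kb1 and Pdcd4. Alternatives covered filters, normalization, moderation, weights, a replicate block, leaving out arrays, thresholds and, for strain, leaving sex out. Same-numbered arrays of the same sex in HHR and NHR deviated together (correlation over 0.1) in 2 of 8 pairs, so the numbers were not taken as pairing.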

Additional observations from a re-analysis of the deposited data

Results flagged for a closer look

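In 92 groups of 4 arrays tested for the named genes, 4 held an array whose gap to its nearest neighbour exceeded Dixon's 95% limit as a share of the group's range, and chance alone flags about 1 in 20 groups. HHR female 1 was the highest of its group for Eif1a, at 10.81 against 10.48 to 10.52 in the others (gap ratio 0.889). The same array was the lowest for Eif2ak4, at 8.51 against 8.67 to 8.69 (gap ratio 0.919). HHR male 2 was the lowest for Eif1b, at 8.82 against 8.97 to 8.98 (gap ratio 0.912). HHR male 1 was the highest for Eif4ebp2, at 10.69 against 10.60 to 10.62 (gap ratio 0.839). For Eif2ak3 every HHR male lay above the mean of the NHR males and every HHR female below the mean of the NHR females. Its strain effect was 0.02 in males and -0.11 in females, a difference of 0.14 (SE 0.09) that did not pass the limma test (adjusted p = 0.994).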

How the results depend on the processing

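No called difference of a single gene reversed under any alternative run. Of 2488 values recomputed for single genes, 2361 stayed on their side of the threshold, 84 lost the call and 43 gained it. Of the 2361, 29 turned sign, all of them values not past the test. For strain, 6 genes were higher without the 3 far NHR arrays, 5 were lower at an adjusted p under 0.01, and at least 1.2-fold left 6 higher and 1 lower. Leaving out 1 array gave 9 to 11 higher and 7 to 9 lower. In males the higher count of 1 became 3 with the filter on dim probe sets, with single-symbol probe sets, after quantile normalization or after cyclic loess. It became 0 after median centring, with the 8 male arrays only or at 0.01, 2 with trended robust moderation, 5 with array weights or the replicate block, and 8 without the 4 NHR arrays of the near end. The lower count of 2 became 1 without the 3 arrays, with the 8 male arrays only, at 0.01 and at 1.2-fold. Leaving out 1 array gave 0 to 5 higher and 1 to 2 lower. In females, without the 3 arrays 1 gene was higher and 1 lower, with the 8 female arrays only 5 and 3, and at 0.01 1 and 0. The lower count was also 3 after median centring and at 1.2-fold, and leaving out 1 array gave 2 to 10 higher and 2 to 5 lower. For sex and for the interaction leaving out 1 array gave 0 to 0. The cause of these changes was not tested, beyond the fewer arrays or stricter limits that some settings impose.

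With the replicate number as a block, 11 genes were higher and 9 lower for strain, 5 and 2 in males and 9 and 5 in females. Correlations of the same-numbered arrays ran from -0.11 to 0.3.

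Over all probe sets, the strain comparison gave 2636 higher and 3015 lower. It gave 1853 lower with single-symbol probe sets, 1449 and 1444 at 0.01, and 1350 and 1134 at 1.2-fold. The single-symbol counts, here and in females, are out of 15097 probe sets. They cannot be set directly against counts out of 27342. Of the calls, 46.6% were higher in HHR, and 56.3% were after median centring. In males 556 were higher and 542 lower, with 1087 and 948 under array weights, 892 higher under the block, 320 lower with the male arrays only, 1924 and 1508 without the 4 near arrays, and 182 and 150 at 0.01. Without a single array they reached as few as 262 and 227 (NHR male 3) and as many as 1148 and 878 (NHR male 2). In females 1580 were higher and 1698 lower, with 1128 lower for single-symbol probe sets, 621 and 617 without the 3 arrays, 2599 and 2899 without the 4, 876 and 954 without NHR female 4, and 589 and 587 at 0.01. Centring and normalization moved the median of all probe sets from -0.03 to between -0.01 and 0.00.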
